A study of Mus musculus with 12 samples.

Results

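The genes of cholesterol synthesis, uptake and trafficking were followed in cardiomyocyte RNA of mice on chow or on a high fat diet. The set is a list of 29 genes given by name for their place in the pathway, with no threshold on any value: 18 enzymes of synthesis, 1 branch enzyme, 4 sterol transfer proteins, 2 enzymes of ester turnover and 4 lipoprotein receptors. The list was chosen with earlier results of these data known. All 29 were found by symbol among the 55335 Ensembl identifiers of the count files, and 28 of them passed the filter on low counts that left 16932 genes for testing.

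Mice were male and 7 to 8 weeks old when feeding began, and the diets were eaten for 7 weeks. The libraries labelled ApoeKO_HFD (n = 3) came from the Apoe knockout strain B6.129P2-Apoe tm1Unc/J on a Western diet rich in fat and cholesterol (0.21% cholesterol), and those labelled ApoeKO_CD (n = 3) from the same strain on standard chow. The libraries labelled WT_HFD (n = 2) came from C57BL/6J mice on the Western diet, and those labelled WT_CD (n = 3) from C57BL/6J mice on chow. The knockout is carried by every cell, and apolipoprotein E is a ligand of several receptors described here. Neither the isolation of the cells nor the number of animals in a library is given in the sources used here, so p-values measure the spread between libraries, which may be technical.

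Animal cells build cholesterol from acetyl-CoA through mevalonate, farnesyl diphosphate, squalene and lanosterol. When sterol in the endoplasmic reticulum is low, the transcription factor SREBP-2 raises the genes of this route together, and when lipoprotein cholesterol arrives through receptors and lysosomes they are lowered. Cholesterol freed in lysosomes leaves them through NPC2 and NPC1, is moved by transfer proteins, and is stored as ester or exported. The heart takes up much of its lipid from circulating lipoproteins.

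The 11 libraries held 22130323 to 46424614 counts, of which at least 9340449 per library were on nuclear genes. The other library of the WT_HFD group, replicate 3, held 1347110 counts and had 64.6% of the counts of sense and antisense gene pairs on the non-coding member, against 0.350% to 0.580% elsewhere, and was left out; the header inside its file also carries the name of the ApoeKO_CD replicate 1 library. Cardiomyocyte genes fit the label, since the summed level of 10 such markers was 89470 to 105300 CPM (TMM-scaled CPM, counts relative to library size, the unit of all levels here) and each marker was found in every library. The summed level of 12 macrophage markers was 6.12 to 35.9 CPM, that of 10 endothelial markers 61.9 to 162 CPM and that of 7 atrial markers 22.6 to 210.0 CPM. In bulk RNA, fewer cells of a type and less RNA per cell cannot be told apart.

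Apoe itself went against the genotype labels on chow. It had 1.94, 3.02 and 3.16 CPM in the libraries labelled ApoeKO_HFD, 25.3, 23.9 and 6.93 CPM in those labelled ApoeKO_CD, 18.9 and 8.44 CPM in those labelled WT_HFD, and 2.91, 2.12 and 3.61 CPM in those labelled WT_CD. The libraries labelled ApoeKO_CD therefore lay above those labelled WT_CD, at 2.69 on the log2 scale (SE 0.53, edgeR adjusted p = 0.0646), and those labelled ApoeKO_HFD below WT_HFD, at −2.34 (SE 0.55, edgeR adjusted p = 0.832). Groups are called by their labels below, and each direction is that of the labelled libraries.

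The receptor genes Vldlr and Lrp6 and the sterol transfer gene Osbp had the highest levels of the set, and the other genes of these roles lay among the synthesis enzymes. Per kilobase of exon, Vldlr, the receptor for triglyceride-rich lipoproteins, had the highest level of the set, with a median of 31.1 CPM per kb over 11 libraries (range 19.6 to 34.5). Osbp, which exchanges sterol for phosphoinositide between the endoplasmic reticulum and the Golgi, followed with 13.9 CPM per kb (11.3 to 15.98). Lrp6, a Wnt co-receptor of the same receptor family, had 4.32 CPM per kb (2.28 to 4.62). The ranges of Vldlr, Osbp and Lrp6 did not overlap each other.

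From Lrp6 downward, each of the members overlapped the next in the order. Fdft1, the squalene synthase, had a median of 3.32 CPM per kb and Hmgcs1, the cytosolic HMG-CoA synthase that opens the mevalonate route, 2.38, beside 2.16 for Npc1, the membrane protein of lysosomal cholesterol export. Hsd17b7, Sc5d, Cyp51, Pmvk, Ebp, Mvk, Mvd and Dhcr7, all enzymes of the route, lay between 1.48 and 0.452 CPM per kb. Among the same levels were Ggps1 at 1.12, Npc2 at 0.968, Lrp1, an endocytic receptor of remnant particles, at 0.695, the lysosomal acid lipase gene Lipa at 0.632 and Scarb1, the receptor of high density lipoprotein, at 0.471. At the lower end, Nsdhl, Msmo1, Acat2, Lss, Idi1, Tm7sf2, Stard4 and the cholesterol esterifying enzyme gene Soat1 lay between 0.310 and 0.0588 CPM per kb, and the squalene epoxidase gene Sqle at 0.0342.

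**Figure D1:**
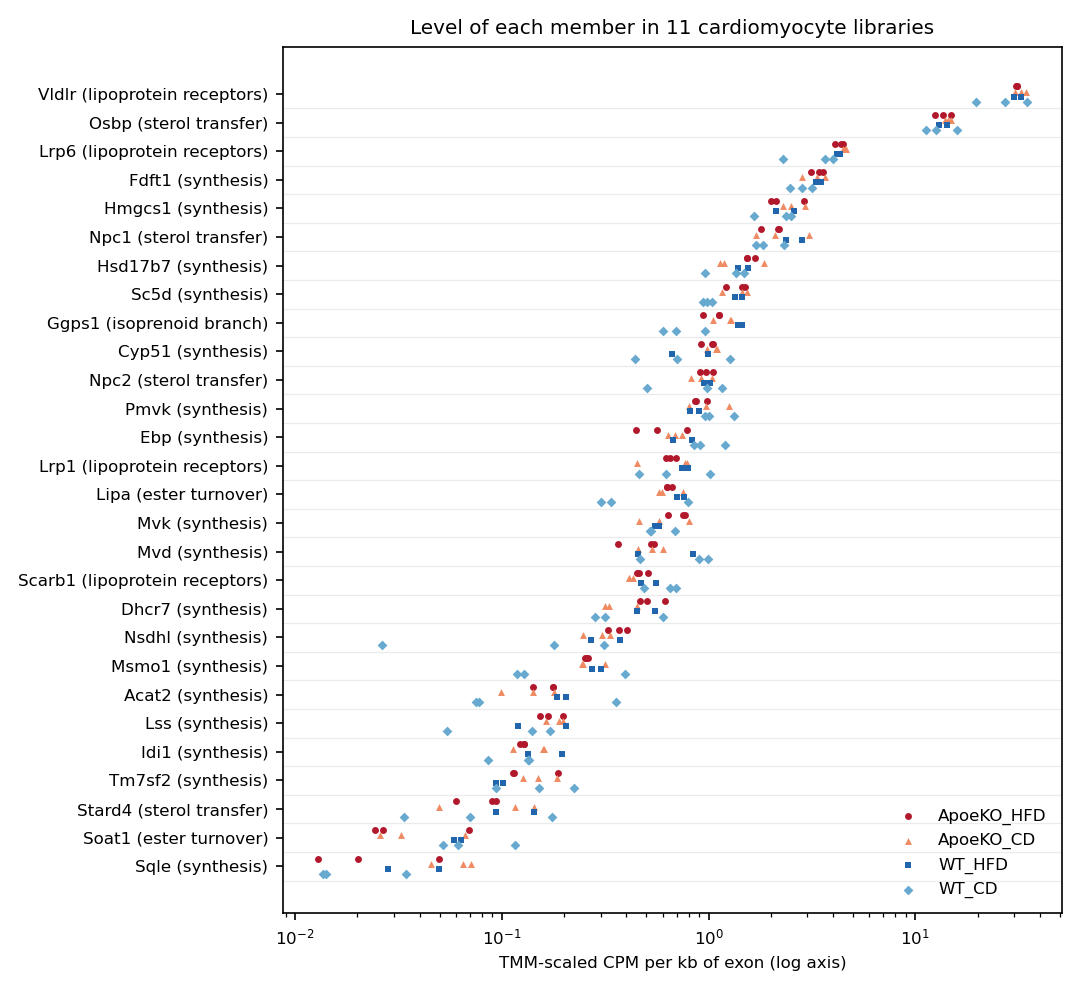
Level of the 28 tested members in each of 11 libraries, as TMM-scaled CPM per kilobase of exon on a log axis, with 1 row per member in order of the median and 1 point per library. Vldlr and Osbp stand apart at the top with medians of 31.1 and 13.9 CPM per kb. Lrp6 follows at 4.32 and overlaps Fdft1, and Sqle is lowest at 0.0342.

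Fdps, which encodes farnesyl diphosphate synthase, was the member that failed the filter. It had 0, 0 and 0 counts in ApoeKO_HFD, 12, 1 and 3 in ApoeKO_CD, 3 and 2 in WT_HFD, and 0, 1 and 5 in WT_CD. The annotation places 1124 of its 4208 exonic bases under another gene model on the same strand, Gm43738, which held 0 to 1 counts. The part of this overlap in the low counts of Fdps was not tested, and the level of Fdps stays uncertain. Tm7sf2, a sterol reductase, shares 532 of 4403 exonic bases with Vps51 on its strand. Its level is also uncertain, since the part of that overlap was not tested. Ggps1, Fdft1, Cyp51, Hmgcs1, Idi1, Lss and Npc1 overlap genes of the opposite strand, which the stranded counts keep apart.

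None of the 28 tested members was called in any of 7 comparisons by edgeR's quasi-likelihood test at an adjusted p under 0.05. The genes called among all 16932 were also few: 0.154% in ApoeKO_HFD against WT_CD, 0.0709% in ApoeKO_HFD against ApoeKO_CD, 0.207% in WT_HFD against WT_CD, 0.508% in ApoeKO_CD against WT_CD, 0.0472% in ApoeKO_HFD against WT_HFD, 0.219% in the interaction and 0% for diet averaged over both genotype labels. A count of 0 of 28 is therefore near the background in each. At an unadjusted p under 0.05 there were 5 members in ApoeKO_HFD against WT_CD (14.2% of all genes), 0 in ApoeKO_HFD against ApoeKO_CD (1.53%), 2 in WT_HFD against WT_CD (12.9%) and 4 in ApoeKO_CD against WT_CD (15.9%). There were 0 in ApoeKO_HFD against WT_HFD (2.83%), 1 in the interaction (8.2%) and 2 for diet averaged over both labels (6.3%), where 18 of 28 members and 50.4% of all genes were above 0 (15 of 28 without WT_CD replicate 3). DESeq2 called 1 member, Ggps1, in WT_HFD against WT_CD, beside 0.306% of the 48951 genes it was run on, and 0 in each of the other comparisons, beside 0.00204% to 0.778%.

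Members with many counts had narrow intervals. For diet averaged over both genotype labels, a contrast that stays the same if the genotype labels of the chow groups were exchanged, Vldlr had a log2 fold change of 0.07 with a 95% interval of −0.18 to 0.32. Osbp had −0.02 (−0.23 to 0.20), Hmgcs1 −0.01 (−0.29 to 0.28) and Fdft1 0.16 (−0.06 to 0.38) in that contrast. For 23 of 28 members the interval lay within a 2-fold change in either direction. In ApoeKO_HFD against WT_CD this held for 16 members and in the interaction for 9. Sqle, Soat1, Stard4, Acat2, Idi1, Tm7sf2 and Nsdhl had median counts under 30 per library, and their intervals were wide. For Sqle, with a median of 7 counts, the interval in ApoeKO_HFD against WT_CD ran from −1.32 to 2.10.

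**Figure D2:**
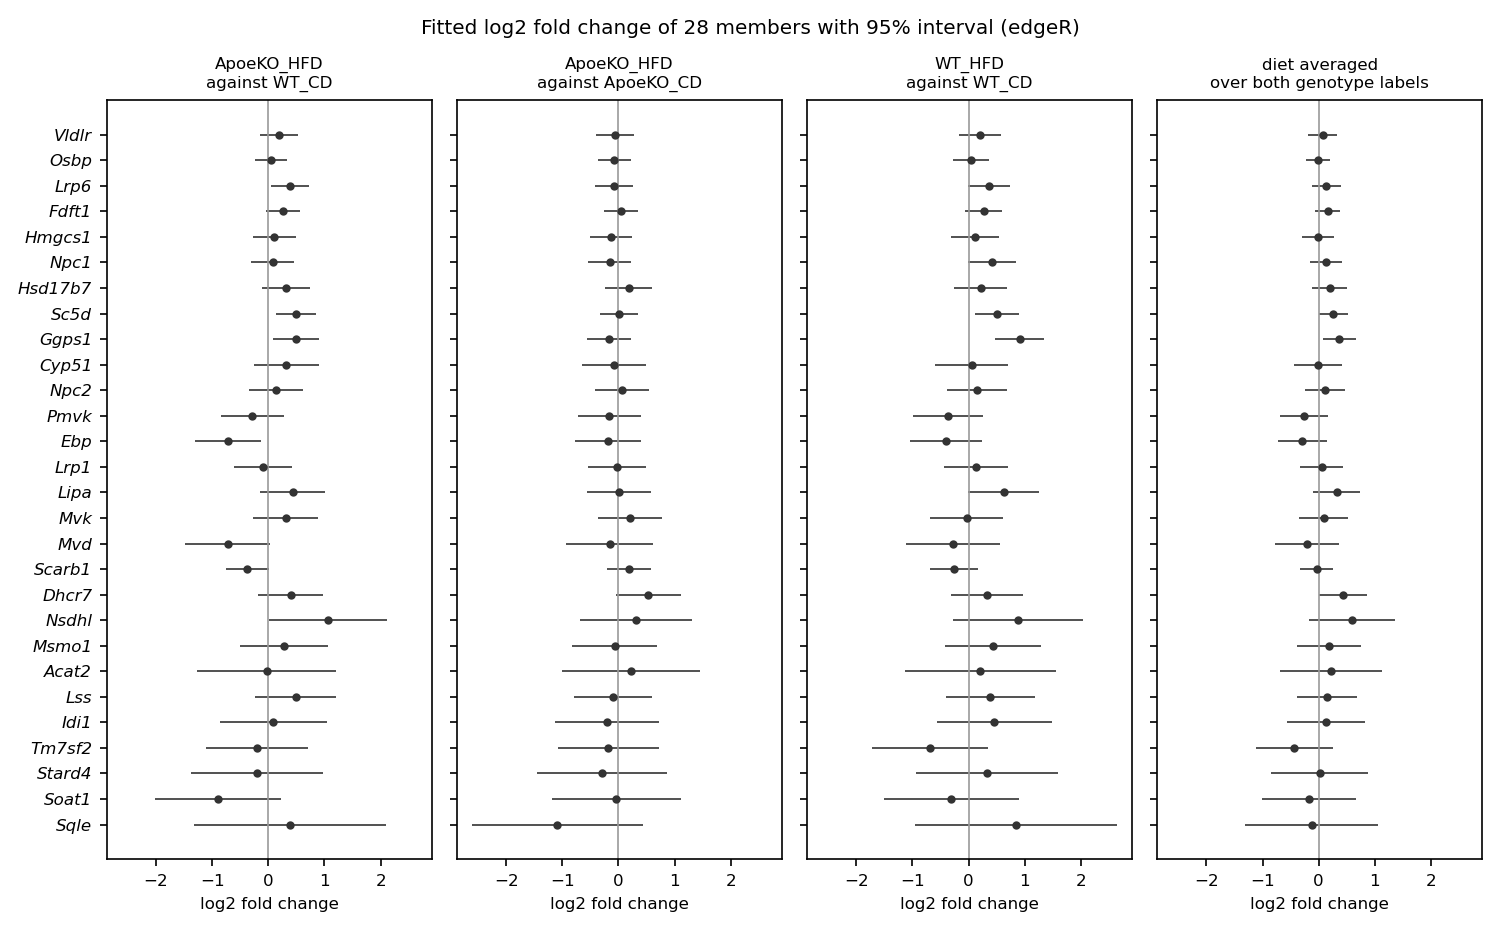
Fitted log2 fold change (x axis) with its 95% interval for the 28 tested members (y axis, in order of level) in 4 comparisons. The intervals are narrow for Vldlr, Osbp and Fdft1 and wide for Sqle and Soat1, and no member passed at an adjusted p under 0.05.

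Between ApoeKO_HFD and WT_CD both the diet and the genotype label differ. Synthesis enzymes had a median log2 fold change of 0.27, with 12 of 17 above 0, and all 28 members one of 0.17 with 19 above 0, beside −0.01 and 49.3% above 0 over all genes tested. The summed level of the 18 synthesis genes was 63.1, 58.6 and 55.9 CPM in ApoeKO_HFD, against 48.6 to 54.7 CPM in the 3 WT_CD libraries. These sums did not overlap, by a small margin, where 15.6% of all single genes did not. Such a share was not counted for sums of genes. The synthesis sums of WT_HFD, 56.8 and 59.7 CPM, also lay above those of WT_CD. Those of ApoeKO_CD, 53.6, 60.4 and 62.1 CPM, overlapped WT_CD. The sums of the sterol transfer, ester turnover and lipoprotein receptor genes overlapped between ApoeKO_HFD and WT_CD. Without WT_CD replicate 3 the median log2 fold change of the members was 0.025. No score over the members was tested.

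Sc5d, which makes the double bond in the B ring of the sterol, had the smallest p of the set in this comparison. It had 7.08, 7.32 and 5.94 CPM in ApoeKO_HFD, 5.65, 7.08 and 7.44 CPM in ApoeKO_CD, 6.55 and 7.08 CPM in WT_HFD, and 4.78, 4.55 and 5.08 CPM in WT_CD. Each WT_CD library thus lay below all 8 others. The log2 fold change of ApoeKO_HFD against WT_CD was 0.49 (SE 0.17, 95% interval 0.14 to 0.85, edgeR adjusted p = 0.224). Groups in this comparison did not overlap for 5 of 28 members, with Hsd17b7, Lrp6, Sc5d and Nsdhl higher (8.42% of all genes) and Ebp lower (7.22%), together beside 15.6% of all genes.

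Ebp, the sterol isomerase that acts before Sc5d, lay the other way. Its level was 1.82, 1.31 and 1.03 CPM in ApoeKO_HFD, 1.46, 1.71 and 1.59 CPM in ApoeKO_CD, 1.92 and 1.56 CPM in WT_HFD, and 2.78, 1.96 and 2.11 CPM in WT_CD. All WT_CD libraries were above all others, by a small margin over WT_HFD replicate 1. The log2 fold change of ApoeKO_HFD against WT_CD was −0.72 (SE 0.28, 95% interval −1.31 to −0.14, edgeR adjusted p = 0.259). Sc5d and Ebp, which act in adjacent steps, had fold changes of opposite sign. Over all genes, 3.95% had every WT_CD library below the 8 others and 3.13% above, against 2 members (Sc5d and Lrp6) and 1 member (Ebp) of 28.

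Ggps1 makes geranylgeranyl diphosphate, a lipid that anchors proteins to membranes, from the farnesyl diphosphate that the sterol route also uses. Its level was 5.29, 4.44 and 5.31 CPM in ApoeKO_HFD, 4.95, 5.96 and 6.04 CPM in ApoeKO_CD, 6.85 and 6.52 CPM in WT_HFD, and 2.85, 3.30 and 4.55 CPM in WT_CD. WT_HFD lay above every other library and WT_CD replicates 1 and 2 were lowest. In ApoeKO_HFD against WT_CD, where WT_CD replicate 3 overlapped ApoeKO_HFD replicate 2, the log2 fold change was 0.50 (SE 0.19, edgeR adjusted p = 0.261).

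Promoter windows from RefSeq (GRCm38.p6, from 250 bases before to 50 after the start) were available for 22 of the 29 members, and 3 are shown: Hmgcs1 as the member with a match to the form of the sterol regulatory element searched for, and Ggps1 and Sc5d as the members with the smallest p in any comparison among those with a window. They lie at chr13:119690101-119690400 on the plus strand for Hmgcs1, at chr13:14063439-14063738 on the minus strand for Ggps1 and at chr9:42264251-42264550 on the minus strand for Sc5d. Capitals mark TCACNCCAC (the form of the sterol regulatory element searched for), CCAAT (the NF-Y box) and GGGCGG (a GC box) on either strand, and none of the matches overlaps another.
Hmgcs1: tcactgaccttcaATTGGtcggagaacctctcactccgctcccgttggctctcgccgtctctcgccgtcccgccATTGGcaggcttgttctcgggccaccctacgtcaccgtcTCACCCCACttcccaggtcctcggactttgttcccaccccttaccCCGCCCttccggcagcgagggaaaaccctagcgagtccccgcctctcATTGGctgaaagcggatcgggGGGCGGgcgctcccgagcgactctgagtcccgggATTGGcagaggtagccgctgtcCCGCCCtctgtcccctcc
Ggps1: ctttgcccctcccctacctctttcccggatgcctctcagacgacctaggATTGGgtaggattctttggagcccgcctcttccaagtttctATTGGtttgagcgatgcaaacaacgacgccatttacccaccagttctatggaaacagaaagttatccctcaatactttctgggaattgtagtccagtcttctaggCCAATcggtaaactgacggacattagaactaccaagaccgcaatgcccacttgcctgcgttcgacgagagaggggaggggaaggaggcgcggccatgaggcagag
Sc5d: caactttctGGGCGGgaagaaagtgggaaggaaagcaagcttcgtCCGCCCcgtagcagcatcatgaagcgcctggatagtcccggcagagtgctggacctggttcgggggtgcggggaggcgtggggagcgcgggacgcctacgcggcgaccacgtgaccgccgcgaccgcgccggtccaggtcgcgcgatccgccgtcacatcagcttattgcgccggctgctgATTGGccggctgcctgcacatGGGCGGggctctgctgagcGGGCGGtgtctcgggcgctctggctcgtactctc
CCAAT was found in 20 of the 22 members, in 20 of their 26 windows, against 37.4% of all 32851 windows. GGGCGG was found in 20 of 22 members, in 21 of 26 windows, against 35.7% of all windows. TCACNCCAC was found in 1 member, Hmgcs1, and in 1.24% of all windows. These matches are descriptions of letters in a window and not sites. Only the exact letters were searched for. Members without a window, among them Fdps, Fdft1 and Sqle, could not be searched.

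For the wild-type label, diet was compared between WT_HFD and WT_CD. Of 28 members 21 were above 0 (48.7% of all genes), with a median log2 fold change of 0.21, beside −0.01 over all genes. Without WT_CD replicate 3 the median was 0.125, with 17 above 0. Ggps1 came closest to a call, at 0.91 (SE 0.21, 95% interval 0.47 to 1.35, edgeR adjusted p = 0.0909), with both WT_HFD libraries above all 3 WT_CD libraries. It passed in 4 alternatives: with DESeq2 (adjusted p = 0.0222), with no filter on low counts (edgeR adjusted p = 0.00492), without WT_CD replicate 2 (edgeR adjusted p = 0.0281) and without WT_CD replicate 3 (edgeR adjusted p = 0.0342). Over all alternatives its adjusted p ran from 0.00492 to 0.623. Sc5d had 0.51 (SE 0.18, edgeR adjusted p = 0.277).

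Lipa, whose product frees cholesterol from lipoprotein esters in lysosomes, was spread widely in the control group. It had 4.28, 4.25 and 4.53 CPM in ApoeKO_HFD, 3.91, 5.09 and 4.02 CPM in ApoeKO_CD, 5.18 and 4.77 CPM in WT_HFD, and 2.06, 5.38 and 2.29 CPM in WT_CD. WT_CD replicate 2 was the highest of all 11 libraries and WT_CD replicates 1 and 3 the lowest. In WT_HFD against WT_CD the log2 fold change was 0.63 (SE 0.30, edgeR adjusted p = 0.39), and without WT_CD replicate 2 it was 1.19 (edgeR adjusted p = 0.00648). Lipa is active in macrophages, and the sum of 12 macrophage markers was 24.3 and 6.12 CPM in WT_HFD, against 23.1, 12.1 and 11.5 CPM in WT_CD. Its part in the level of Lipa was not tested.

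Groups did not overlap for 7 of 28 members in WT_HFD against WT_CD, where 24.7% of all genes did not, since 2 libraries stand against 3. Lrp6, Sc5d, Ggps1, Fdft1 and Npc1 were higher in WT_HFD (12.8% of all genes) and Pmvk, the phosphomevalonate kinase gene, and Ebp were lower (11.8%). Npc1 had 24.9, 20.3 and 24.5 CPM in ApoeKO_HFD, 19.3, 34.7 and 23.8 CPM in ApoeKO_CD, 32.0 and 26.7 CPM in WT_HFD, and 20.8, 26.2 and 19.1 CPM in WT_CD. The margin of WT_HFD replicate 2 over WT_CD replicate 2 was small, and ApoeKO_CD replicate 2 was the highest library. The log2 fold change of WT_HFD against WT_CD was 0.41 (SE 0.20, edgeR adjusted p = 0.400).

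For the knockout label, diet was compared between ApoeKO_HFD and ApoeKO_CD, and here the members lay near 0. The median log2 fold change was −0.07, with 10 of 28 above 0 (51.2% of all genes), beside 0.01 over all genes, and each member had an edgeR adjusted p of 1. Without ApoeKO_HFD replicate 3 the median was −0.028. Dhcr7, the reductase of the final step to cholesterol, had the smallest p. It had 2.92, 3.58 and 2.71 CPM in ApoeKO_HFD, 1.83, 2.62 and 1.92 CPM in ApoeKO_CD, 2.63 and 3.18 CPM in WT_HFD, and 1.65, 1.84 and 3.5 CPM in WT_CD. Both high fat groups averaged above the chow group of the same label, although WT_CD replicate 3 was among the highest libraries.

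For Dhcr7 the log2 fold change was 0.53 (SE 0.28, 95% interval −0.05 to 1.11, edgeR adjusted p = 1) under the knockout label and 0.43 (SE 0.21, 95% interval −0.0005 to 0.86, edgeR adjusted p = 0.777) averaged over both labels. Sqle had only 3, 3 and 11 counts in ApoeKO_HFD, against 14, 9 and 10 in ApoeKO_CD, and its log2 fold change of −1.09 had an interval of −2.61 to 0.44 that holds 0. Groups did not overlap for 3 of 28 members (Scarb1 and Dhcr7 higher, beside 5.04% of all genes, and Lrp6 lower, beside 3.99%), and for 9.03% of all genes. Averaged over both labels, Ggps1 had the smallest p, with 0.37 (SE 0.14, edgeR adjusted p = 0.777).

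ApoeKO_CD against WT_CD compares the genotype labels on chow. Scarb1 had 3.83, 3.92 and 4.31 CPM in ApoeKO_HFD, 3.49, 3.66 and 3.49 CPM in ApoeKO_CD, 4.0 and 4.72 CPM in WT_HFD, and 5.88, 4.16 and 5.53 CPM in WT_CD. The ApoeKO_CD libraries were the 3 lowest of all, and WT_CD replicates 1 and 3 the highest. On the log2 scale ApoeKO_CD lay below WT_CD, at −0.55 (SE 0.19, 95% interval −0.94 to −0.16, edgeR adjusted p = 0.168). The sum of 10 endothelial markers, cells that also carry this receptor, was 82.1, 67.9 and 61.9 CPM in ApoeKO_CD, against 142, 64.3 and 159 CPM in WT_CD, where the same 2 replicates were high, and its part in the level of Scarb1 was not tested.

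Lrp6 lay the other way on chow. It had 55.8, 60.1 and 60.9 CPM in ApoeKO_HFD, 62.7, 63.2 and 61.2 CPM in ApoeKO_CD, 59.1 and 57.1 CPM in WT_HFD, and 49.9, 54.7 and 31.2 CPM in WT_CD. WT_CD replicate 3 stood far below the rest, and the other WT_CD libraries were below all 8 libraries of the other groups by less. The log2 fold change was 0.46 (SE 0.16, 95% interval 0.13 to 0.80, edgeR adjusted p = 0.177) in ApoeKO_CD against WT_CD. With no filter on low counts Lrp6 passed at 0.53 (edgeR adjusted p = 0.0361).

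Ggps1 had the smallest p on chow too, with 0.67 (SE 0.19, edgeR adjusted p = 0.118). Of 28 members 19 were above 0 (48.7% of all genes) with a median of 0.17, beside −0.01 over all genes. That median was 0.106 without WT_CD replicate 3 and 0.286 without WT_CD replicate 2. Groups did not overlap for 6 of 28 members (Lrp6, Sc5d, Ggps1 and Sqle higher, beside 8.92% of all genes, Scarb1 and Ebp lower, beside 7.67%), and for 16.6% of all genes. These values share the WT_CD libraries with the comparisons above.

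**Figure D3:**
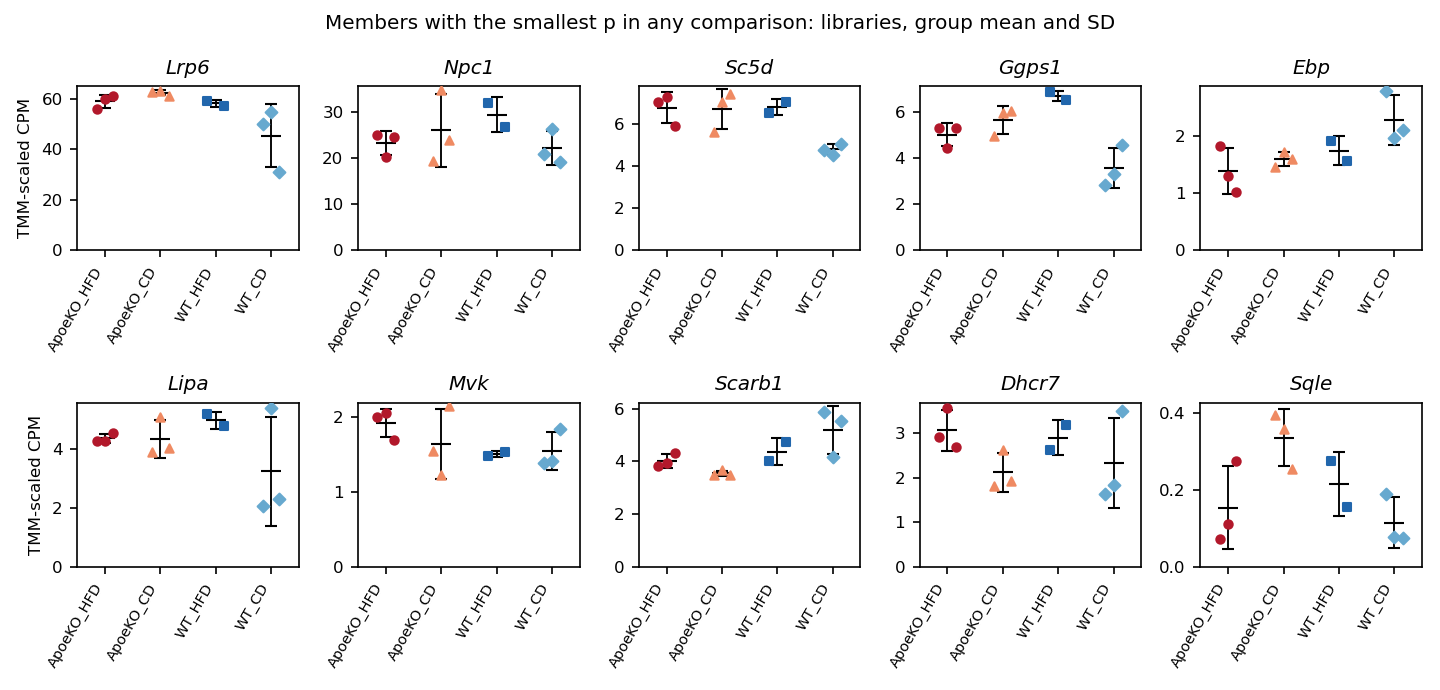
Levels of the 10 members that had 1 of the 3 smallest p in a comparison, as TMM-scaled CPM on linear axes from 0, with 1 point per library and the group mean with its SD in black. In Sc5d the WT_CD libraries (4.55 to 5.08 CPM) sit below all others, and in Lrp6 and Lipa the WT_CD libraries spread from 31.2 to 54.7 CPM and from 2.06 to 5.38 CPM.

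ApoeKO_HFD against WT_HFD compares the genotype labels on the high fat diet. The members had a median log2 fold change of −0.01, beside 0.01 over all genes, and an edgeR adjusted p of 1 each. With 1 library left out that median ran from −0.073, without WT_HFD replicate 1, to −0.011. Ggps1 had −0.41 (SE 0.21) and Npc1 −0.34 (SE 0.20). Mvk, the mevalonate kinase gene, had 2.01, 2.05 and 1.70 CPM in ApoeKO_HFD, 1.55, 1.23 and 2.15 CPM in ApoeKO_CD, 1.48 and 1.54 CPM in WT_HFD, and 1.39, 1.41 and 1.84 CPM in WT_CD. Its log2 fold change in this comparison was 0.35 (SE 0.30), with ApoeKO_HFD above WT_HFD in every library but with ApoeKO_CD spread over the whole range. Groups did not overlap for 9 of 28 members (Mvk and Tm7sf2 higher, beside 11.3% of all genes, and Msmo1, Lrp1, Idi1, Ggps1, Acat2, Npc1 and Lipa lower, beside 10.3%), and for 21.7% of all genes.

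The interaction asks whether the effect of diet differs between the genotype labels. If the genotype labels of the chow groups were exchanged, this contrast would instead compare the genotypes, summed over both diets. Ggps1 had the smallest p of the set, with −1.08 (SE 0.28, 95% interval −1.67 to −0.49, edgeR adjusted p = 0.229), made of −0.17 under the knockout label and 0.91 under the wild-type label. Npc1 had −0.57 (SE 0.27, edgeR adjusted p = 0.614) and Sc5d −0.50 (SE 0.25, edgeR adjusted p = 0.629). The median over the members was −0.19, beside 0.02 over all genes, and it was −0.103 without WT_CD replicate 3 and −0.316 without WT_CD replicate 2.

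The WT_CD libraries were the most spread of the groups of 3. The median SD of the members on the log2 scale was 0.14 in ApoeKO_HFD, 0.21 in ApoeKO_CD and 0.48 in WT_CD, and WT_CD had the widest spread for 19 of 28 members, beside 65.1% of all genes. WT_CD replicate 3 was the lowest of 11 libraries for 10 members and WT_CD replicate 1 for 7, where 22.1% and 15.1% of all genes had their lowest value in those libraries. WT_CD replicate 2 was the highest for 7 members and WT_CD replicate 1 for 6, against 13.7% and 14.7% of all genes. Nsdhl, of the sterol demethylation complex, had 2 counts in WT_CD replicate 3 and 13 to 48 in the other libraries. Msmo1, the methylsterol oxidase gene, had 0.727, 2.43 and 0.789 CPM in WT_CD and 1.49 to 1.94 CPM elsewhere.

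Leaving out WT_CD replicate 2 brought calls that the 11 libraries did not give. In ApoeKO_HFD against WT_CD 4 of 28 members then passed by edgeR, all higher: Cyp51, Lrp6, Msmo1 and Lipa, beside 7.79% of all genes. In WT_HFD against WT_CD it was 3 members, all higher (Msmo1, Ggps1 and Lipa), beside 6.09%. In ApoeKO_CD against WT_CD it was 6 members, with Cyp51, Lrp6, Msmo1, Vldlr and Lipa higher and Scarb1 lower, beside 10.8%. In the interaction Lipa passed at −1.18 (edgeR adjusted p = 0.0345), beside 1.7%. No member passed in ApoeKO_HFD against ApoeKO_CD (0.0837% of all genes), in ApoeKO_HFD against WT_HFD (0.12%) or for diet averaged over both labels (0.012%). The remaining WT_CD libraries, replicates 1 and 3, are those in which Lipa, Msmo1 and Cyp51 were low.

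**Figure D4:**
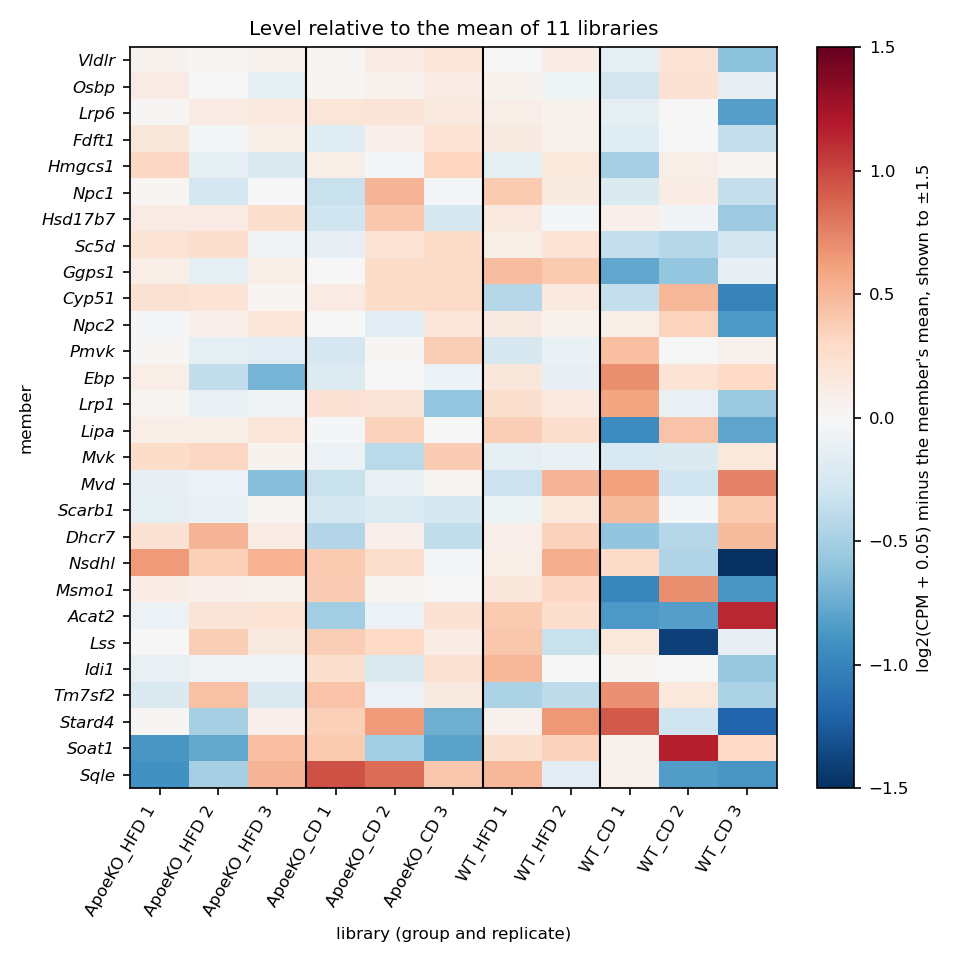
Level of 28 members (rows, in order of level) in each of 11 libraries (columns) as log2(CPM + 0.05) minus the mean of that member, with red above and blue below the mean. The WT_CD columns hold the strongest colours, and WT_CD replicate 3 was the lowest library for 10 members.

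Genes that control sterol levels were taken from 5 further lists of 54 genes, of which 52 were tested. None was called higher in any comparison. Srebf1, which encodes SREBP-1, was called lower in ApoeKO_HFD against WT_CD, with 15.6, 16.6 and 15.5 CPM in ApoeKO_HFD, against 25.5, 28.5 and 39.5 CPM in WT_CD (log2 fold change −0.97, SE 0.19, edgeR adjusted p = 0.0495). That call was lost in 11 of 19 alternatives, among them those without any 1 of the ApoeKO_HFD libraries, without WT_CD replicate 3 and with a replicate block, at log2 fold changes of −1.10 to −0.76 over all 19. Srebf1 was also called lower in ApoeKO_CD against WT_CD, at −1.13 (SE 0.19, edgeR adjusted p = 0.00859), and this call was lost without WT_CD replicate 3 (−0.93, edgeR adjusted p = 0.0533) and with all 12 libraries. Abca1, which exports cholesterol, was called lower there too, with 24.8, 34.9 and 22.5 CPM in ApoeKO_CD, against 67.1, 72.8 and 60.4 CPM in WT_CD (log2 fold change −1.29, SE 0.16, edgeR adjusted p = 0.000501), and was called in 18 of 19 alternatives. Srebf2, which encodes SREBP-2, the factor of the synthesis genes, had 7.31, 7.48 and 6.80 CPM in ApoeKO_CD, against 10.4, 7.38 and 8.20 CPM in WT_CD, at −0.27 (SE 0.16, edgeR adjusted p = 0.421), and is named outside the rule. Its log2 fold change was −0.04 in ApoeKO_HFD against WT_CD and −0.22 in WT_HFD against WT_CD. It was 0.22 in ApoeKO_HFD against ApoeKO_CD and 0.17 in ApoeKO_HFD against WT_HFD. For diet averaged over both labels it was 0.003 and in the interaction 0.44, and Srebf2 was called in no comparison.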

How the data were processed

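RNA of cardiomyocytes was read in 12 libraries. Per the labels, RNA was prepared with a Maxwell RSC kit and libraries with the SMART-Seq Stranded kit; the submitters' processing notes name build GRCm38 (mm10) and the tools HTSeq 0.13.5, STAR 2.7a and Trimmomatic 0.39. The deposited files hold raw counts per gene, with no normalization by the authors. Symbols, positions and exon lengths came from GENCODE for GRCm38.

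From these, edgeR 4.0.16 (R 4.3.3) was run on 11 libraries with TMM scaling and filterByExpr. A mean was fitted for each of 4 groups, and contrasts were tested with quasi-likelihood F tests (robust). The 4 groups shared 1 estimate of spread per gene, on which all standard errors, intervals and p-values rest. WT_CD was more spread, with a median log2 SD over all genes of 0.40, against 0.23 in ApoeKO_HFD and in ApoeKO_CD. With only the groups compared, genes at an unadjusted edgeR p under 0.05 went from 259 to 556 in ApoeKO_HFD against ApoeKO_CD. In WT_HFD against WT_CD they went from 2176 to 1016. Testing covered 16932 genes at 7 residual degrees of freedom, and the biological coefficient of variation was 0.2. P-values were two-sided and Benjamini-Hochberg adjusted over all genes within each of 7 comparisons. Each log2 fold change has a standard error worked out from the F statistic of its test. The 95% interval sets that error around the reported log2 fold change and is approximate, most of all for members with few counts. The test was checked on simulated data with the same spread in all groups, for ApoeKO_HFD against ApoeKO_CD only. Genes of low level were left unchanged there. That check therefore does not cover the wider spread of WT_CD or changes in members with few counts. The comparisons share libraries and are not independent.

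The members and lists were chosen with earlier results of these data known. Members are given in full where they were called or had 1 of the 3 smallest p in a comparison. Replicates of a group differed by more than sampling noise (chi-square per degree of freedom 24.5 to 189.7). Other settings tried were DESeq2 1.42.0, RLE factors, no filter, at least 50 counts in 3 libraries, nuclear genes only, only the groups compared, all 12 libraries, a replicate block and each library left out; for Srebf1 and Abca1 they were run after seeing the data. Some genes of the pathway are not reported here.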

Additional observations from a re-analysis of the deposited data

Results flagged for a closer look

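Lrp6 had groups that did not overlap in opposite directions under the same change of diet: the ApoeKO_HFD libraries were all below those of ApoeKO_CD, by a narrow margin, and the WT_HFD libraries were all above those of WT_CD. Of all genes, 3.99% lay lower without overlap in the first of these comparisons and 12.8% higher in the second. The share of all genes with both was not counted. The test of the difference, the interaction, gave −0.44 (SE 0.24, edgeR adjusted p = 0.652) and did not pass.

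Ggps1 had such groups for the genotype labels: every ApoeKO_CD library lay above every WT_CD library, and every ApoeKO_HFD library below both WT_HFD libraries. Of all genes, 8.92% lay higher without overlap in the first of these comparisons and 10.3% lower in the second. The share of all genes with both was not counted. The interaction of Ggps1 was −1.08 (SE 0.28, edgeR adjusted p = 0.229) and did not pass, with a range of −1.29 to −0.79 over the alternatives.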

How the results depend on the processing

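The count of called members was 0 in all 7 comparisons with 11 libraries, and also with RLE factors, at least 50 counts in 3 libraries, nuclear genes only, only the groups compared, all 12 libraries and the replicate block. In WT_HFD against WT_CD it was 1 with DESeq2, 1 with no filter and 0 to 3 with 1 library left out. In ApoeKO_CD against WT_CD it was 1 with no filter and 0 to 6 with 1 library left out. It was 0 to 4 in ApoeKO_HFD against WT_CD and 0 to 1 in the interaction with 1 library left out, and 0 in the other comparisons. Mvk in ApoeKO_HFD against WT_HFD turned to −0.089 with all 12 libraries, where WT_HFD replicate 3 held counts of the other strand.

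Over all genes, the counts in ApoeKO_HFD against WT_CD, WT_HFD against WT_CD and ApoeKO_CD against WT_CD were 26, 35 and 86, against 184, 150 and 381 with DESeq2, 296, 272 and 475 with no filter, 0, 1 and 3 with all 12 libraries, 12, 9 and 38 with only the groups compared and 14, 19 and 61 with the replicate block. With 1 library left out they ran from 0 to 1304, 4 to 1019 and 37 to 1801, the highest each time without WT_CD replicate 2. In ApoeKO_HFD against ApoeKO_CD, ApoeKO_HFD against WT_HFD and the interaction they were 12, 8 and 37, against 17, 25 and 73 with DESeq2, 26, 49 and 105 with no filter, 1, 1 and 8 with all 12 libraries and 9, 7 and 27 with the replicate block. With only the groups compared, the first 2 of these were 16 and 24. With 1 library left out they ran from 6 to 14, 4 to 20 and 20 to 285. For diet averaged over both labels it was 0, against 1 with DESeq2, 19 with no filter and up to 2 with 1 library left out. The replicate block changed no call on a member and ended that of Srebf1 in ApoeKO_HFD against WT_CD. There the edgeR adjusted p was 0.0602 (over the alternatives, by edgeR or DESeq2, 6.7e-05 to 0.999). Same-numbered libraries deviated together, at a correlation above 0.1, in 1 of 15 pairs (range −0.18 to 0.19). With 2 or 3 libraries in a group, deviations within it are tied to each other, so these correlations cannot decide whether the numbers pair libraries. The cause of these differences was not tested. The median of the members in WT_HFD against WT_CD was 0.34 with no filter, against 0.21.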

Other observations

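Of 5 tested genes of the list of liver X receptors and sterol efflux, 1 was called in ApoeKO_CD against WT_CD, Abca1, beside 0.508% of all genes. In that comparison 0 of 5 were above 0, with a median log2 fold change of −0.81, beside 48.7% and −0.01 over all genes; the receptor genes Nr1h3 and Nr1h2 had −0.24 and −0.13 (edgeR adjusted p = 0.573 and 0.731). With none called, the list had 5 of 5 above 0 and a median of 0.46 in ApoeKO_HFD against ApoeKO_CD (51.2% of all genes), and 0 of 5 above 0 and a median of −0.35 in WT_HFD against WT_CD (48.7%). In the interaction, also with none called, 5 of 5 were above 0 with a median of 0.79 (51.5% of all genes). These comparisons share libraries. Mylip, which encodes a ubiquitin ligase of lipoprotein receptors, had 4.11, 4.65 and 3.74 CPM in ApoeKO_CD, against 7.88, 5.69 and 8.20 CPM in WT_CD (edgeR adjusted p = 0.0617). The sterol exporter gene Abcg1 had 1.24, 0.994 and 0.430 CPM in ApoeKO_CD, against 5.41, 1.77 and 1.65 CPM in WT_CD (edgeR adjusted p = 0.0733), with WT_CD replicate 1 far above the rest. Mylip and Abcg1 were chosen after their values were seen.

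Lrp11, a receptor-related gene of low level, had the smallest p among further lipoprotein receptors in the 3 comparisons against WT_CD and in the interaction. It had 0.789, 0.299 and 0.451 CPM in ApoeKO_HFD, 0.506, 0.278 and 0.784 CPM in ApoeKO_CD, 0.466 and 0.557 CPM in WT_HFD, and 0.158, 0.157 and 0.113 CPM in WT_CD. All WT_CD libraries were below all others, as they were for 3.95% of all genes. None of the 3 comparisons against WT_CD passed, with edgeR adjusted p of 0.195 for ApoeKO_HFD, 0.255 for WT_HFD and 0.146 for ApoeKO_CD. The interaction did not pass either, at an edgeR adjusted p of 0.578.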
